A study of Mus musculus with 4 samples.

Results

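The genes of sterol and fatty acid synthesis were compared between Anp32b-/- (knockout) and Anp32b+/+ (wild type) B-cell leukaemia cells of the mouse. The set was chosen by gene symbol and holds 33 genes of the 16613 symbols listed in the count files. It covers 17 enzymes that make cholesterol, 9 enzymes that make and modify fatty acids, 5 genes of the transcription factors that control both and of the proteins that retain them, and 2 genes of cholesterol export. The RNA came from GFP+ cells from the bone marrow of recipients, which had been given B220+ bone marrow cells (B220 is a surface protein of the B lineage) carrying an introduced N-myc oncogene. Donor cells were either Anp32b-/- or Anp32b+/+, both carried N-myc, and the labels name the strain C57BL/6 and call the cells B-ALL, a leukaemia of B-cell precursors, induced by N-myc. Each genotype had 2 libraries, 4 in all. The labels used here give neither the age of the animals, nor the way in which Anp32b was disrupted, nor whether libraries came from separate animals, so each p reflects no more than how far these libraries differ, and that may be technical.

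Cholesterol is built from acetyl-CoA through mevalonate, isoprenoid units, squalene and a series of sterol intermediates. Fatty acids are built from the same acetyl-CoA by carboxylation, chain synthesis, elongation and desaturation. Both routes are under the control of SREBP transcription factors. SCAP escorts these from the endoplasmic reticulum for activation when sterol is scarce, and INSIG proteins hold SCAP back when sterol is plentiful. SREBP-2, the product of Srebf2, is best known for the sterol genes, and SREBP-1, the product of Srebf1, for the fatty acid genes. Oxysterol-activated LXR receptors are known to induce the export genes Abca1 and Abcg1 as well as Srebf1 and Scd1. Dividing lymphoid cells use both routes for new membrane.

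The libraries held 19581575 and 19605800 estimated reads for knockout and 19692505 and 19758671 for wild type, and values below are CPM (reads scaled to library size with TMM factors). Anp32b itself was at 74.4 and 70.6 CPM in knockout libraries and at 774 and 853 CPM in wild-type libraries (edgeR adjusted p = 2.27e-13, log2 fold change -3.49, SE 0.07). The 12 B cell and precursor markers summed to 5342 and 5370 CPM in knockout and to 5759 and 5699 CPM in wild type (2 rose and 6 fell). All 13 neutrophil markers fell, to a sum of 122.5 and 123.7 CPM in knockout libraries against 625.9 and 637 CPM in wild-type libraries, and none of these was at 0 in any library. Of 11 tested monocyte and macrophage markers 3 fell, with sums of 52 and 51.2 CPM in knockout and 109 and 103 CPM in wild type. Of 9 erythroid markers edgeR called 0, with 2 at an unadjusted p under 0.05 (197 and 199 CPM in knockout, 164 and 191 CPM in wild type). The 4 Y-linked genes fell, to a sum of 42.5 and 41.7 CPM in knockout against 156 and 173 CPM in wild type. The fit held no term for sex. The part of sex in any difference, those of the X-linked genes Ebp and Nsdhl included, was not tested. Of 4 tested T cell markers 1 rose and 2 fell (Cd4 and Lck). The T cell marker sums were 91.3 and 87 CPM in knockout and 56.5 and 62.8 CPM in wild type. Most of each sum was Lat, the marker that rose (75.9 and 70.4 CPM in knockout, 35.0 and 38.4 CPM in wild type). Cd3e had 0 reads in both knockout libraries (which allows up to 0.153 CPM) and 2 and 4 reads in the wild-type libraries. The part of these differences in the results below was not tested. In such bulk samples, fewer cells of a type and less RNA per cell cannot be told apart.

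All 33 genes passed the filter on low counts. Between the genotypes 14 were called at an edgeR adjusted p under 0.05, against 23.6% of all 12123 tested genes. Of the 14, 9 were higher in knockout libraries (27.3% of the 33 genes, against 10.9% of all tested genes) and 5 were lower (15.2%, against 12.6%). The calls were divided by pathway. Of the 9 fatty acid enzymes 5 rose and 0 fell (0 were lower at an unadjusted edgeR p under 0.05), while of the 17 sterol enzymes 5 fell and 1 rose. Of the other genes, both export genes and Srebf1 rose. The median log2 fold change was 0.20 over the fatty acid enzymes and -0.10 over the sterol enzymes, against 0.0021 over all tested genes. The values of the 2 genotypes did not overlap for 22 of the 33 genes, 12 higher and 10 lower in knockout. That was so for 60.5% of all tested genes, 30% higher and 30.5% lower.

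**Figure D1:**
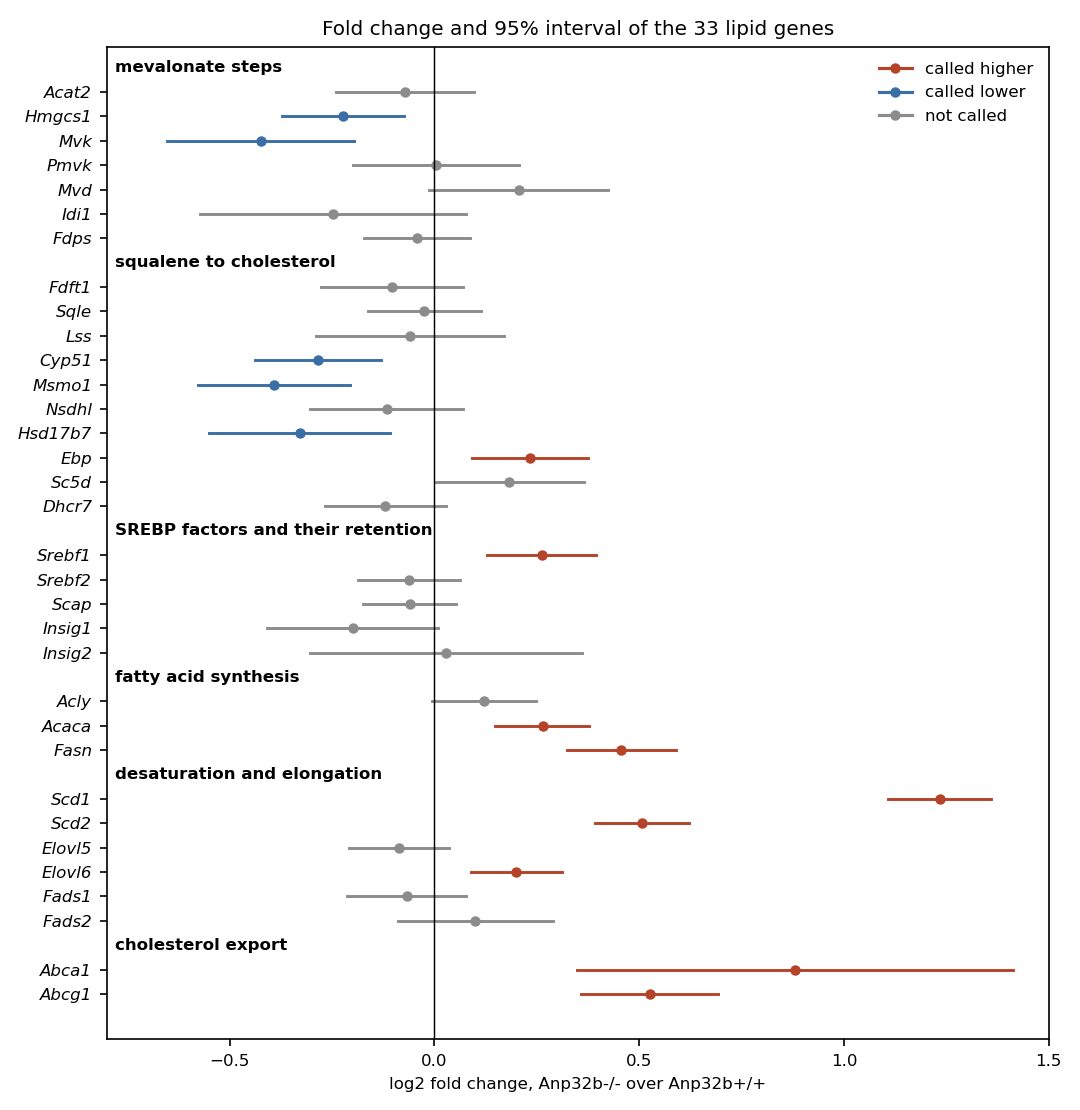
Log2 fold change of knockout over wild type for each of the 33 genes (points) with its 95% interval (lines), grouped by role, with called genes in colour. The called fatty acid and export genes and Srebf1 lie to the right of 0, and all called sterol enzymes but Ebp lie to the left.

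The fatty acid arm began with the supply of carbon. Acly, the enzyme that splits citrate into cytosolic acetyl-CoA, was at 348 and 352 CPM in knockout and at 341 and 303 CPM in wild-type libraries. The knockout values lay above both wild-type values by a small margin and the difference was not called (log2 fold change 0.12, SE 0.06, edgeR adjusted p = 0.163). Without wild-type replicate 1 it was called (0.21), and over its 11 alternatives the edgeR, limma or DESeq2 adjusted p ran from 0.000877 to 0.592. Acaca, acetyl-CoA carboxylase, which makes malonyl-CoA and commits carbon to fatty acid synthesis, was at 135 and 133 CPM in knockout and at 114 and 109 CPM in wild-type libraries. Its groups were apart, and it rose by 0.26 on the log2 scale (SE 0.05, edgeR adjusted p = 0.0024). That call did not survive leaving out knockout replicate 1 (edgeR adjusted p = 0.0739) or knockout replicate 2 (0.0914), the upper end of a range over the alternatives from 8.85e-05. Of the 50-base stretches of the longest Acaca transcript, 52.56% also occur in Gm5182, a symbol that the count files do not list.

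Fasn encodes fatty acid synthase, the multifunctional enzyme that builds palmitate, and lies on chromosome 11 at 120805958 to 120825166 (GRCm38). It had the most reads of the 33 genes. Its level was 663 and 636 CPM in knockout libraries, against 504 and 443 CPM in wild-type libraries. Both knockout libraries were above both wild-type libraries. The fold change was 1.37 (95% interval 1.25 to 1.5, log2 0.46, SE 0.06, edgeR adjusted p = 8.27e-05). The gene was called higher in all 11 alternatives.

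Stearoyl-CoA desaturases place the first double bond into saturated fatty acids, and 2 of their genes had the smallest p of the 33 genes. Scd1 (chromosome 19, 44394450 to 44407709) was at 120 and 116 CPM in knockout libraries and at 51.6 and 48.7 CPM in wild-type libraries. The groups were far apart relative to their spread (118 ± 3.31 and 50.2 ± 2.0 CPM, SD, n = 2 each). Scd1 rose 2.35-fold (95% interval 2.16 to 2.57, log2 fold change 1.23, SE 0.06, edgeR adjusted p = 2.92e-09). By p it stood at rank 26 of all 12123 tested genes, and it was the only one of the 33 genes called with a fold of at least 2. Of all tested genes 5.2% were called at that fold, and 1.3% were called higher at it. Scd2 (chromosome 19, 44293676 to 44306864), its neighbour, was at 158 and 155 CPM in knockout and at 112 and 107 CPM in wild-type libraries. Here too the genotypes were apart, with a 1.42-fold rise (95% interval 1.31 to 1.54, log2 0.51, SE 0.05, edgeR adjusted p = 6.8e-06). Both desaturase calls held in all 11 alternatives. Of the 50-base stretches of the longest transcript, 4.66% for Scd1 and 4.01% for Scd2 also occur in other genes, among them other copies of the family, and how such reads were counted is unknown here.

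Elongases and polyunsaturated desaturases gave fewer calls. Elovl6, which lengthens palmitate, was at 190 and 183 CPM in knockout and at 165 and 160 CPM in wild-type libraries. The groups did not overlap, and it rose by 0.20 on the log2 scale (SE 0.05, edgeR adjusted p = 0.0122). Leaving out knockout replicate 1 ended that call (edgeR adjusted p = 0.217), as did leaving out knockout replicate 2 (0.146) and dropping the filter on low counts (0.0612), in a range from 0.00124. Elovl5, which lengthens polyunsaturated chains, was at 106 and 101 CPM in knockout and at 106 and 113 CPM in wild-type libraries. Fads1, the delta-5 desaturase, was at 39.2 and 42.0 CPM in knockout and at 42.1 and 43.0 CPM in wild-type libraries. Fads2, the delta-6 desaturase, was at 19.5 and 20.7 CPM in knockout and at 19.7 and 17.8 CPM in wild-type libraries. None of these last 3 genes was called. The 95% interval of the fold was 0.865 to 1.02 for Elovl5, 0.863 to 1.06 for Fads1 and 0.94 to 1.22 for Fads2.

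Summed over the 9 fatty acid enzymes, the level was 1779 and 1737 CPM in knockout libraries and 1455 and 1345 CPM in wild-type libraries. Summed over the 17 sterol enzymes, it was 446 and 458 CPM in knockout and 471 and 483 CPM in wild-type libraries. The ratio of the sums was therefore 3.99 and 3.79 in knockout and 3.09 and 2.78 in wild-type libraries, without overlap. These sums and ratios are of CPM not divided by length, so that long and abundant genes weigh most in them.

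**Figure D2:**
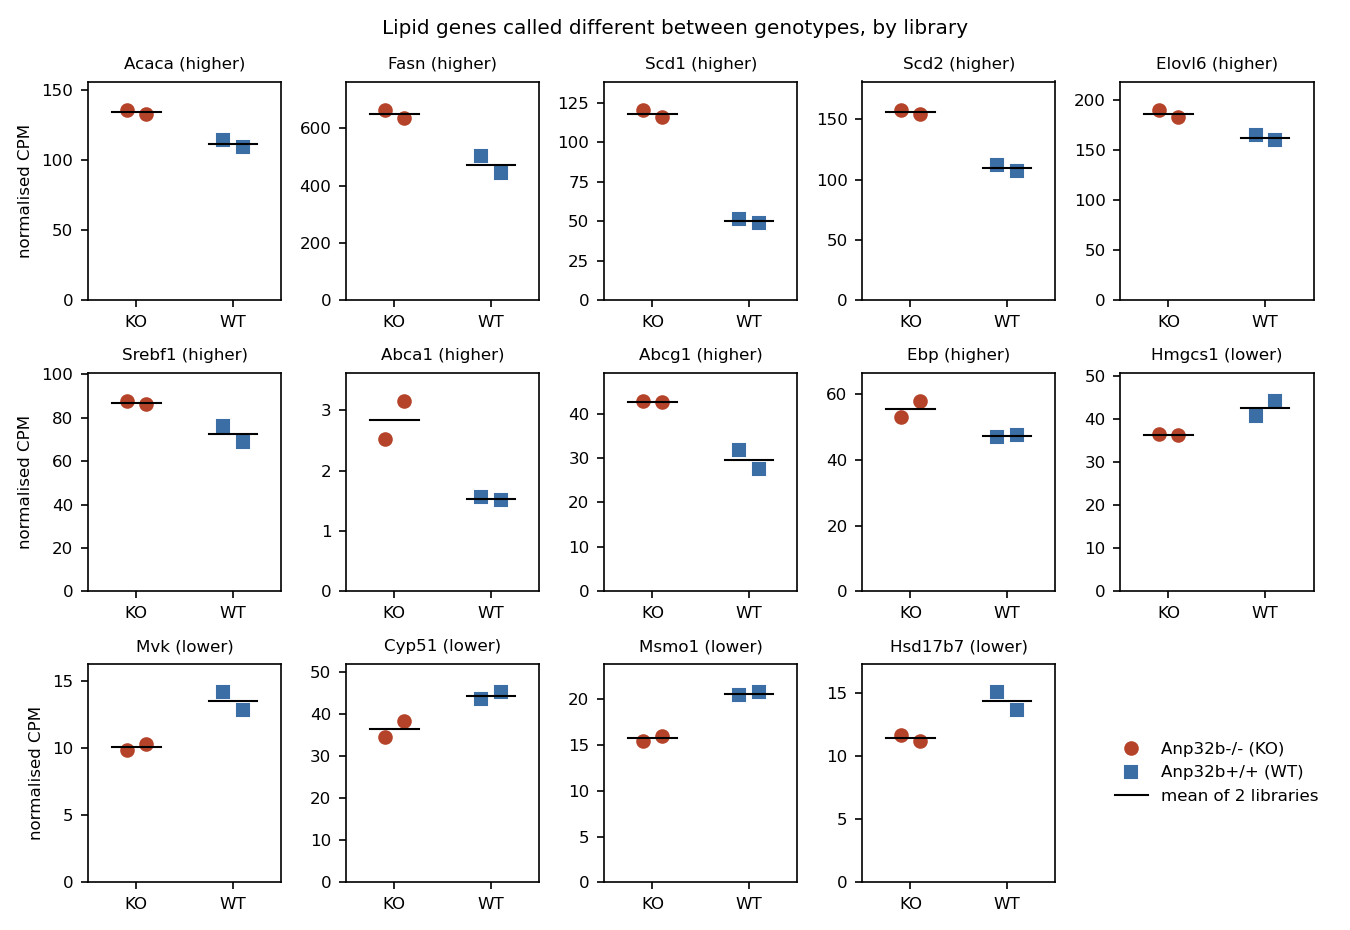
Normalised CPM in each library for the 14 called genes, with knockout libraries (circles) left of wild-type libraries (squares), means as bars and axes that start at 0. In every panel the libraries of one genotype lie apart from those of the other, with the largest ratio for Scd1, at 118 CPM on average in knockout and 50.2 CPM in wild type.

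Export genes rose in knockout libraries. Abcg1 (chromosome 17, 31057694 to 31117984) encodes a transporter that passes cholesterol to lipoprotein particles, and was at 42.8 and 42.5 CPM in knockout and at 31.8 and 27.5 CPM in wild-type libraries. The knockout libraries were close to each other and above both wild-type libraries. Abcg1 rose 1.44-fold (95% interval 1.28 to 1.62, edgeR adjusted p = 0.000192) and was called in all 11 alternatives. Abca1, the transporter that loads cholesterol onto apolipoprotein A-I, had the lowest level per kilobase of the 33 genes. It had 49 and 61 reads in knockout libraries (2.52 and 3.15 CPM), against 31 and 30 reads in wild-type libraries (1.56 and 1.51 CPM). It rose 1.84-fold (95% interval 1.27 to 2.66, log2 fold change 0.88, SE 0.25, edgeR adjusted p = 0.0192). Such low counts make this value less firm. Not called were the fits without knockout replicate 2 (adjusted p = 0.215), without wild-type replicate 2 (0.0578), with no filter (0.0739) and by DESeq2 (0.169), and the range over its 10 alternatives was 0.0101 to 0.215.

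Of the factors that govern both arms, Srebf1 alone was called. It was at 87.7 and 86.3 CPM in knockout and at 76.4 and 68.7 CPM in wild-type libraries. The groups were apart, and it rose 1.2-fold (log2 fold change 0.26, SE 0.06, edgeR adjusted p = 0.00694). Leaving out knockout replicate 1 (edgeR adjusted p = 0.0997), leaving out knockout replicate 2 (0.139) or dropping the filter (0.0885) ended the call, in a range from 9.96e-05. Counts per gene do not separate the SREBP-1a and SREBP-1c transcripts, which start at different promoters. Srebf2 was at 145 and 145 CPM in knockout and at 159 and 144 CPM in wild-type libraries, so a knockout pair with little spread lay within the range of the wild-type pair (log2 fold change -0.06, edgeR adjusted p = 0.492). Its sign turned without wild-type replicate 1 (0.01, edgeR adjusted p = 0.876), and it was called lower without wild-type replicate 2 (-0.14, edgeR adjusted p = 0.0414, in a range of 0.0414 to 0.876).

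Scap was at 333 and 326 CPM in knockout and at 355 and 333 CPM in wild-type libraries (log2 fold change -0.06, edgeR adjusted p = 0.465). Insig1, whose own transcription follows SREBP activity, was at 23.4 and 19.6 CPM in knockout and at 23.1 and 26.2 CPM in wild-type libraries. The genotypes overlapped (log2 fold change -0.20, SE 0.10, edgeR adjusted p = 0.162), and the difference was called without wild-type replicate 1 (-0.29, edgeR adjusted p = 0.0393, in a range of 0.0393 to 0.762). Insig2 was at 9.60 and 6.76 CPM in knockout and at 8.28 and 7.77 CPM in wild-type libraries, the knockout pair spanning the wild-type pair. None of Srebf2, Scap, Insig1 and Insig2 was called on the 4 libraries.

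Among the enzymes from acetyl-CoA to farnesyl diphosphate, 2 of 7 fell (28.6%, against 12.6% of all tested genes) and 0 rose. Hmgcs1, the synthase that makes HMG-CoA, was at 36.5 and 36.4 CPM in knockout and at 40.9 and 44.3 CPM in wild-type libraries. The knockout libraries were nearly equal and below both others, and it fell by 0.22 on the log2 scale (SE 0.07, edgeR adjusted p = 0.0313). Its call was lost in 5 of 11 alternatives: DESeq2 (adjusted p = 0.197), no filter (0.109), and the fits that left out knockout replicate 1 (0.192), knockout replicate 2 (0.248) or wild-type replicate 2 (0.115). The range over alternatives was 0.00647 to 0.248. Of its 50-base stretches, 13.59% lie in Gm48342 on the opposite strand, a symbol that the count files do not list, and how strand was treated in counting is unknown here.

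Mvk, mevalonate kinase, was at 9.86 and 10.3 CPM in knockout and at 14.2 and 12.9 CPM in wild-type libraries. It had the largest fall of the 33 genes, 0.42 on the log2 scale, and it fell with groups apart (log2 fold change -0.42, SE 0.11, edgeR adjusted p = 0.0101). Without knockout replicate 1 the adjusted p was 0.0907, without knockout replicate 2 it was 0.0979, with no filter 0.0631 and with DESeq2 0.121, the highest of a range from 0.00313.

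The next kinase and the decarboxylase of this stretch were not called. Pmvk, phosphomevalonate kinase, was at 14.2 and 15 CPM in knockout and at 14.4 and 14.7 CPM in wild-type libraries, with a log2 fold change of 0.0030 whose sign changed with the setting. Mvd, the decarboxylase that yields isopentenyl diphosphate, was at 15.9 and 17.9 CPM in knockout and at 15.6 and 13.7 CPM in wild-type libraries (log2 fold change 0.21, SE 0.10, edgeR adjusted p = 0.169). Its difference lay on the positive side, unlike those of Hmgcs1 and Mvk. Acat2, the cytosolic thiolase of the first step, was at 28.9 and 27.7 CPM in knockout and at 28.1 and 31.4 CPM in wild-type libraries. Fdps, farnesyl diphosphate synthase, was at 55.4 and 57.5 CPM in knockout and at 57.7 and 58.5 CPM in wild-type libraries. Acat2 (45.89% of 50-base stretches shared with other genes) and Fdps (86.42%) have near-identical copies, so their counts are uncertain.

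Idi1, the isomerase that supplies dimethylallyl diphosphate, had the widest spread between replicates. It was at 13.0 and 8.69 CPM in knockout libraries, a ratio of 1.5 between them, and at 12.1 and 13.7 CPM in wild-type libraries. Knockout replicate 1 lay within the wild-type range and knockout replicate 2 below it. The log2 fold change was -0.25 (SE 0.15, edgeR adjusted p = 0.274) on all libraries, -0.56 (adjusted p = 0.0233) without knockout replicate 1 and 0.02 (adjusted p = 0.965) without knockout replicate 2, so 1 library decides its sign. Of its 50-base stretches 30.52% occur in other genes, Gm13502 more than any other, and 9.22% of its exon bases overlap Gm48574 on the opposite strand, so its counts are uncertain. After it, the widest ratios between knockout replicates were 1.42 for Insig2 and 1.25 for Abca1. Between wild-type replicates the widest was 1.16, for Abcg1.

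From squalene to cholesterol, 3 of 10 enzymes fell (30%, against 12.6% of all tested genes) and 1 rose (10%, against 10.9%). The 3 that fell act in the demethylation of lanosterol. Cyp51, the lanosterol 14-alpha demethylase, was at 34.5 and 38.2 CPM in knockout and at 43.5 and 45.1 CPM in wild-type libraries (log2 fold change -0.28, SE 0.07, edgeR adjusted p = 0.0104). Msmo1, the C-4 methylsterol oxidase, was at 15.4 and 16 CPM in knockout and at 20.4 and 20.8 CPM in wild-type libraries (-0.39, SE 0.09, edgeR adjusted p = 0.00419). Hsd17b7, the 3-ketosteroid reductase of the same demethylation, was at 11.7 and 11.2 CPM in knockout and at 15.1 and 13.7 CPM in wild-type libraries (-0.33, SE 0.10, edgeR adjusted p = 0.0323). In each of the 3 genes both knockout libraries were below both wild-type libraries. Nsdhl, the decarboxylating dehydrogenase that acts between Msmo1 and Hsd17b7, was at 19.2 and 21.6 CPM in knockout and at 22.7 and 21.5 CPM in wild-type libraries, with overlap (-0.12, edgeR adjusted p = 0.376).

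The calls of these 3 genes were not firm. Cyp51 had an adjusted p of 0.203 when knockout replicate 1 was left out, 0.0633 when knockout replicate 2 was, 0.0891 with the filter dropped and 0.0722 by DESeq2, in a range from 0.00129. For Msmo1 the adjusted p was 0.0632 without knockout replicate 1, 0.0648 without knockout replicate 2 and 0.064 with DESeq2, in a range from 0.000839. For Hsd17b7 it was 0.125 without wild-type replicate 1, 0.115 without knockout replicate 1, 0.245 without knockout replicate 2, 0.102 with no filter and 0.256 with DESeq2, in a range from 0.0164. Their log2 fold changes ran from -0.42 to -0.21 over the alternatives. A change of sign was hardly possible, since both knockout libraries were below both wild-type libraries. DESeq2 called 0 of the 5 falling sterol genes (4 at an unadjusted p under 0.05) and 7 of the 9 rising genes.

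Ebp, the isomerase that moves a double bond within the sterol ring, went the other way. It was at 52.9 and 57.8 CPM in knockout and at 46.8 and 47.4 CPM in wild-type libraries, and rose by 0.23 on the log2 scale (SE 0.07, edgeR adjusted p = 0.0198). It was not called by DESeq2 (adjusted p = 0.111), with the filter dropped (0.098) or with knockout replicate 2 left out (0.314), in a range from 0.0052. Sc5d, which introduces the next double bond, was at 25.2 and 24.4 CPM in knockout and at 20.5 and 23.2 CPM in wild-type libraries (0.18, SE 0.08, edgeR adjusted p = 0.141), and leaving out wild-type replicate 2 brought a call (0.27, adjusted p = 0.0436, in a range to 0.491). Dhcr7, which closes the route to cholesterol, was at 32.5 and 32.5 CPM in knockout and at 35.7 and 34.8 CPM in wild-type libraries (-0.12, edgeR adjusted p = 0.243). Of these late steps Ebp alone was called on all libraries. The signs of Sc5d and Dhcr7 did not turn in any of 11 alternatives. That adds little, since the genotypes did not overlap for either gene.

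The enzymes around squalene were not called. Sqle, squalene epoxidase, known as a rate-limiting step, was at 44.0 and 43.3 CPM in knockout and at 44.4 and 44.4 CPM in wild-type libraries, a fold of 0.983 with a 95% interval from 0.894 to 1.08. Fdft1, squalene synthase, was at 25.6 and 27.4 CPM in knockout and at 26.9 and 30.0 CPM in wild-type libraries. Lss, lanosterol synthase, was at 11.5 and 12.6 CPM in knockout and at 11.9 and 13.1 CPM in wild-type libraries. For Fdft1 and Lss the genotypes overlapped. Of the 50-base stretches of Fdft1, 30.72% occur in other genes, most of them in Ctsb on the opposite strand, which had 2886 and 2919 reads in knockout and 3512 and 3526 reads in wild-type libraries.

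Levels of single genes were compared per kilobase of the longest coding transcript. On this scale Acly (79.0 ± 0.70 CPM per kb) and Scap (78 ± 1.24) led in knockout libraries, followed by Fasn (64.6 ± 1.92), and Scap (81.3 ± 3.71), Acly (72.7 ± 6.02) and Fasn (47.1 ± 4.29) led in wild-type libraries (SD, n = 2 each). Acly and Scap did not differ beyond their spread in knockout libraries. Scd1 stood 10th of 33 in knockout (24.4 ± 0.68 CPM per kb) and 19th in wild type (10.4 ± 0.41). Fdps (40.8 ± 1.09 in knockout, 42.1 ± 0.42 in wild type) was the highest of the sterol enzymes. Abca1 was the lowest gene in both genotypes, at 0.28 ± 0.04 CPM per kb in knockout and 0.15 ± 0.0030 in wild type.

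**Figure D3:**
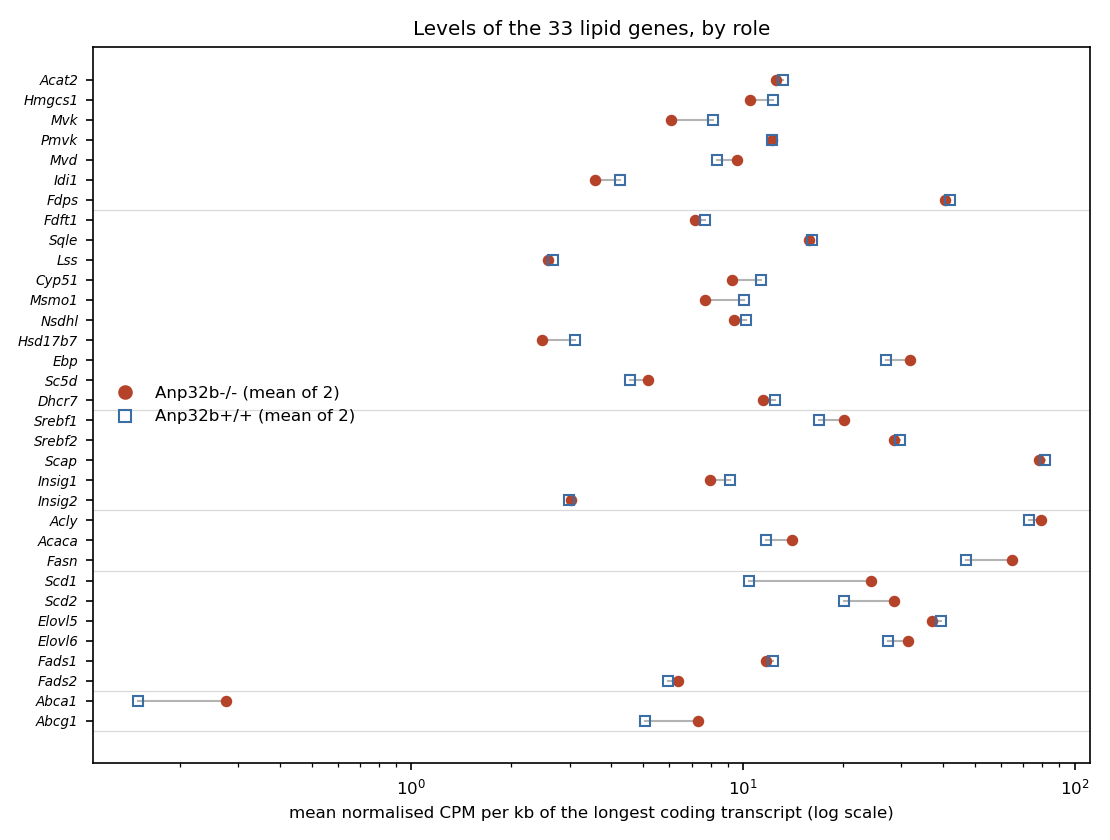
Mean normalised CPM per kilobase of the longest coding transcript (log axis) for the 33 genes in knockout (filled circles) and wild-type libraries (open squares), in order of role. Levels span from Abca1 at 0.28 in knockout and 0.15 in wild type to Acly and Scap at 79 and 78 in knockout, and Scd1 shows the largest ratio between genotypes.

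Promoter sequence from RefSeq (GRCm38.p6) was at hand for 26 of the 33 genes, in 34 windows, since some genes have several annotated starts. Fdps, Fdft1, Sqle, Scd1, Scd2, Fads1 and Abcg1 had no window. The counts below therefore leave out both Scd genes and Abcg1, whose calls held in all alternatives. In each, the 250 bases before the start were searched on both strands for TCACNCCAC (a core of the sterol response element bound by SREBP), CCAAT (the box bound by NF-Y, a known partner of SREBP), GGGCGG (the GC box bound by Sp1) and CACGTG (an E-box). The first of these occurred in 1 window, that of Hmgcs1, and in 1.05% of all 32851 windows of the table. CCAAT occurred in 13 of 17 windows of sterol enzymes and in 2 of 6 windows of fatty acid enzymes, against 33.8% of all windows and 36.1% of those of tested genes. GGGCGG occurred in 14 of 17 and 2 of 6, against 32.7% of all windows and 55.8% of those of tested genes. CACGTG occurred in 3 of 17 and 1 of 6, against 6.02% and 8.29%. Windows of one gene can overlap, and a match is a match of letters only. Some windows lie within the span of their gene, the single windows of Acaca and Fasn among them. That of Acaca is at 84195188 to 84195437 of chromosome 11, and the gene at 84129635 to 84401651. Other windows hold many exon bases, such as 250 for Idi1 and 243 for Fads2.

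Below are windows of a gene that fell (Hmgcs1, chr13:119690101-119690350, plus strand), of the sterol enzyme that rose (Ebp, chrX:8193513-8193762, minus strand) and of fatty acid synthase (Fasn, chr11:120824548-120824797, minus strand). They are shown 5′ to 3′ on the gene's strand, to set the boxes of the arms side by side. Capitals mark CCAAT on either strand (ATTGG on the other) and, in Hmgcs1, also the TCACNCCAC match.
Hmgcs1: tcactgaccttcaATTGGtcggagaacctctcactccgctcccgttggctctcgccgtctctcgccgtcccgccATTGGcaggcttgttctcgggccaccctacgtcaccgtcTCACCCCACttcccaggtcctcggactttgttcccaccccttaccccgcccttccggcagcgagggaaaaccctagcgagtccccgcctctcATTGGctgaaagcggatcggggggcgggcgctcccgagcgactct
Ebp: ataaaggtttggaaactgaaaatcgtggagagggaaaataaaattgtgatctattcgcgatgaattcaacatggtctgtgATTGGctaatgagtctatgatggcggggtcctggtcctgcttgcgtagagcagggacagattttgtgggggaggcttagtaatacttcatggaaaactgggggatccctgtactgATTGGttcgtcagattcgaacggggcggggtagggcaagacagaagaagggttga
Fasn: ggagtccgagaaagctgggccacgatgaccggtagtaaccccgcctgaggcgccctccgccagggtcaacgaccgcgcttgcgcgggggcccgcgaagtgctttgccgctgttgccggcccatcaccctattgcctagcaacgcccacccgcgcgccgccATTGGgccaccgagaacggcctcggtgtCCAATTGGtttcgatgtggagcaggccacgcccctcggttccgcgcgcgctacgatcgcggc
Hmgcs1 holds 3 CCAAT boxes and the sterol element match 137 bases before the start. Ebp holds 2 boxes. Fasn holds 3 matches, of which 2 overlap because the box reads on both strands.

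Other genes of lipid metabolism, 125 in 9 lists, were read off the same fit. Of the 115 tested, 13 rose and 19 fell, which is 27.8% called, against 23.6% of all tested genes. By direction 11.3% rose and 16.5% fell, against 10.9% and 12.6% of all tested genes. The counts of single lists are small and no list was tested as a set. In the list of other sterol enzymes 2 of 6 rose (33.3%, against 10.9% of all tested genes) and 0 fell. One of them was Erg28, a scaffold of sterol demethylation in yeast, at 46.2 and 49.4 CPM in knockout and at 36.8 and 41.3 CPM in wild-type libraries (log2 fold change 0.29, SE 0.07, edgeR adjusted p = 0.0105).

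Among cholesterol uptake, transport and storage genes 5 of 17 fell (29.4%, against 12.6% of all tested genes) and 2 rose (11.8%, against 10.9%). Soat1, which esterifies cholesterol for storage, fell to 4.91 and 4.16 CPM in knockout, against 7.76 and 7.58 CPM in wild-type libraries (log2 fold change -0.75, SE 0.15). Npc1, which moves cholesterol out of lysosomes, rose by 0.42 on the log2 scale (SE 0.08). In the LXR list 1 of 10 rose (10%, against 10.9% of all tested genes) and 2 fell (20%, against 12.6%). Lpcat3 rose (0.27, SE 0.07) and the receptor genes Rxra (-1.19, SE 0.22) and Nr1h3 (-1.36, SE 0.39) fell. Nr1h3 had 8 and 14 reads in knockout and 34 and 24 reads in wild-type libraries. Both receptor genes were low, neutrophil and monocyte markers fell in the same libraries, and their part in these values was not tested. Of SREBP processing genes 2 of 10 rose (20%, against 10.9% of all tested genes), Aup1 (0.34, SE 0.06) and Mbtps1 (0.17, SE 0.05). Mbtps1 encodes the site-1 protease. In the isoprenoid branch 1 of 15 rose, Rce1 (0.24), and 1 fell, Zmpste24 (-0.16), both enzymes of prenylated protein processing. That is 6.67% each way, below the shares over all tested genes.

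Around the fatty acid enzymes, 2 of 10 other elongation and desaturation genes rose (20%, against 10.9% of all tested genes) and 0 fell. Those that rose, Tecr (0.28, SE 0.05) and Hacd2 (0.23, SE 0.08), act in the elongation cycle. Hacd2 lost its call in 8 of 11 alternatives, with each single library left out among them (adjusted p from 0.0247 to 0.328 by edgeR, limma or DESeq2). In the supply list 1 of 10 rose (10%, against 10.9% of all tested genes) and 2 fell (20%, against 12.6%). G6pdx, the NADPH-producing dehydrogenase, rose (0.24, SE 0.06), and the acetyl-CoA synthetase genes Acss1 (-0.33, SE 0.06) and Acss2 (-1.45, SE 0.26) fell. Acss2 was low, with 28 and 21 reads in knockout and 60 and 77 reads in wild-type libraries. Of the fatty acid oxidation genes 5 of 18 fell (27.8%, against 12.6% of all tested genes) and 1 rose (5.56%, against 10.9%). Cpt1a, the gate of mitochondrial fatty acid oxidation, fell to 81.6 and 79.6 CPM in knockout, against 117 and 113 CPM in wild-type libraries (-0.52, SE 0.05, edgeR adjusted p = 7.34e-06), Etfa fell (-0.24) and Eci1 rose (0.32). Of 19 activation and glycerolipid genes 4 fell (21.1%) and 1 rose (5.26%), against the same shares of all tested genes. Gpam, the first acyltransferase of glycerolipid synthesis, fell to 137 and 131 CPM in knockout, against 192 and 186 CPM in wild-type libraries (-0.50, SE 0.05, edgeR adjusted p = 7.86e-06). Lpin2 (-0.37, SE 0.07) and Pcyt1b (-1.88, SE 0.36) fell as well. Pcyt1b was low, with 12.1 and 8.05 estimated reads in knockout and 43.3 and 33.4 in wild-type libraries. Of the 23 called genes that the naming rule takes from the lists, Rxra, Gpam, Lpin2 and Cpt1a were called in every alternative that could be fitted. Each of the other 19 lost its call without knockout replicate 2 (edgeR adjusted p from 0.0555 to 0.328), and 11 lost it without knockout replicate 1 (0.0536 to 0.284). With the filter dropped 12 lost it (0.0555 to 0.118), and by DESeq2 8 did (DESeq2 adjusted p from 0.0551 to 0.281). Nr1h3 and Hacd2 also lost it with wild-type replicate 1 left out (edgeR adjusted p = 0.11 and 0.0577).

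**Figure D4:**
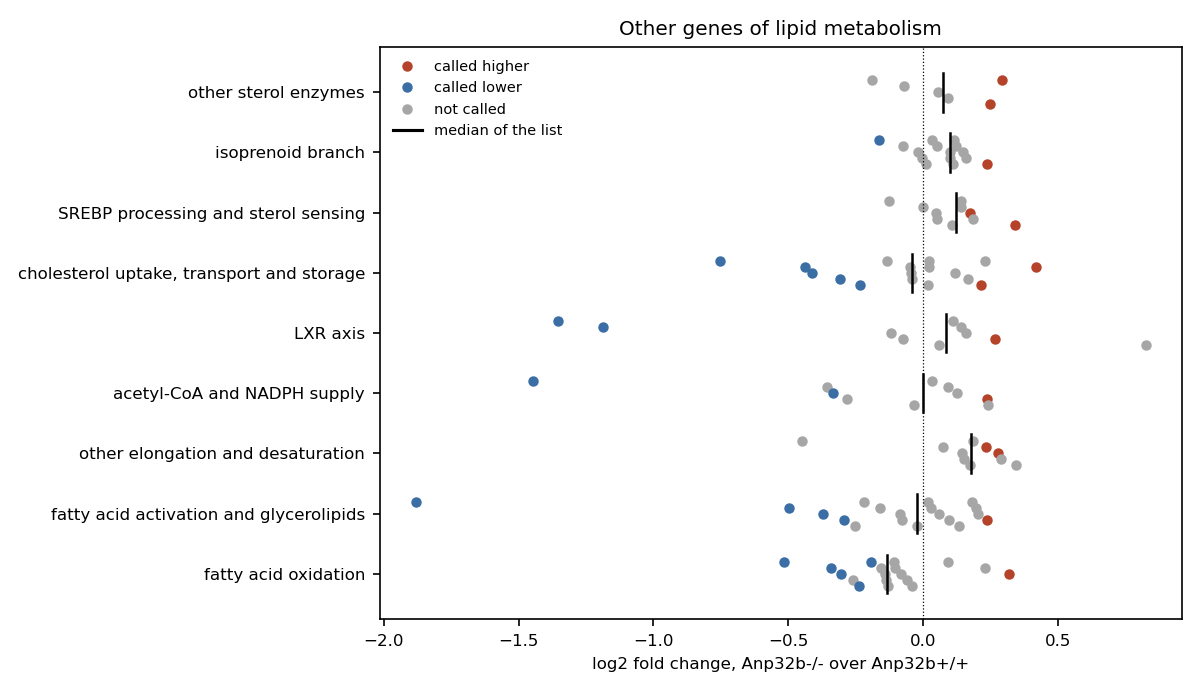
Log2 fold change of knockout over wild type for the 115 tested genes of 9 further lipid lists (points, called genes in colour, bars at list medians). The fatty acid oxidation list has its median at -0.13 and the other elongation and desaturation list at 0.18.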

How the data were processed

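The authors deposited 1 file per library with estimated counts per gene symbol (expected counts, not normalised, 64.5% to 65.6% of them whole). Per the submitters' processing notes, GRCm38 was the build and HISAT2 2.0.4 and DESeq2 1.4.5 were used. Counting tool, annotation, strand setting and filters: not given in the sources used here. Per the labels, RNA was extracted with Trizol.

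Values were rounded and tested with edgeR 4.0.16 (R 4.3.3): TMM, filterByExpr (minimum count 10), quasi-likelihood test of genotype without covariate, Benjamini-Hochberg adjustment over all 12123 tested genes. SE is the log2 fold change divided by the square root of F, with 95% intervals from the t distribution. A count of 0 leaves room for 3 reads, or 0.152 to 0.153 CPM at the library totals of 19581575 to 19758671 reads (counting error only). An exact permutation test of 2 against 2 cannot go below 0.333 and was not run. The procedure was tested on simulated counts. Positions are from RefSeq GRCm38.p6, and transcripts from GENCODE M21.

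The genes and lists were chosen with earlier results of these data known. All 33 genes are named. Of other lists, the rule takes the 3 called genes with the smallest p, and some of these are not reported here. Alternatives were the replicate block, DESeq2 1.42.0, limma-voom 3.58.1, RLE, upper quartile, other filters, a minimum fold of 1.5, and 3 libraries in place of 4, where the single library of a genotype borrows its spread from the other genotype. Faxdc2, Acsl6 and Trac were not analysed here.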

Additional observations from a re-analysis of the deposited data

How the results depend on the processing

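With 2 libraries per genotype, counts of calls depended on the setting. None of the 14 called genes changed sign in any alternative. That adds little, since their genotypes did not overlap and leaving out 1 library could hardly turn a sign. The other alternatives used the same 4 libraries. Fasn, Scd1, Scd2 and Abcg1 were called in all 11 alternative fits, and of these 4 genes Scd1 also passed an added fold of at least 1.5. Over the leave-outs, the 33 genes gave 4 to 10 calls higher and 0 to 5 lower, and all tested genes 372 to 1676 higher and 579 to 1712 lower. The other lipid genes gave 0 to 19 higher and 5 to 20 lower. With a knockout library left out, the spread rests on the wild-type libraries alone, whose chi-square per degree of freedom was 5.56 (2.14 between the knockout libraries). With no filter on low counts the 33 genes gave 5 higher and 1 lower, other lipid genes 3 and 8, and all genes 547 and 744. With DESeq2, 0 of the 33 were called lower (edgeR called 5, and DESeq2 gave 4 lower at an unadjusted p under 0.05), other lipid genes were 6 higher and 11 lower, and all genes 729 and 847. With a fold of at least 1.5 added, the 33 genes gave 2 higher (Scd1 and Abca1) and 0 lower, other lipid genes 0 and 5, and all genes 319 and 766. Upper-quartile normalization moved the share of calls that were lower over all genes to 63.0%, against 53.7%, and left the 33 genes at 9 and 5. The median log2 fold change of all genes was 0.0021 as reported, -0.028 under upper-quartile normalization and 0.0034 under RLE.

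Replicate numbers were not taken as pairing. Deviations of knockout replicate 1 and wild-type replicate 1 from their genotype means correlated at 0.09. Those of the libraries numbered 2 mirror them and add nothing. With the replicate block the 33 genes gave 9 higher and 5 lower, other lipid genes 22 and 24, and all genes 1644 and 1779. Signs turned for genes that were not called: with 3 libraries, log2 fold changes ran from -0.1484 to 0.0058 for Acat2, from -0.0392 to 0.0478 for Pmvk, from -0.5643 to 0.0154 for Idi1, from -0.1301 to 0.0117 for Lss, from -0.1364 to 0.0128 for Srebf2 and from -0.2433 to 0.259 for Insig2. Pmvk was also at -0.0159 with a filter of 10 CPM, and under upper-quartile scaling Pmvk was at -0.0271 and Insig2 at -0.0015. The cause of these changes was not tested.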
